A study of Homo sapiens with 6 samples.

Results

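The G1/S regulators described here were 10 genes for D- and E-type cyclins, the kinases that these cyclins bind, inhibitors of the kinases and the retinoblastoma protein: CCND1, CCND3, CCNE1, CCNE2, CDK2, CDK4, CDK6, CDKN1B, CDKN2C and RB1. They were chosen by gene symbol among the 60624 Ensembl genes of the expression table, and all 10 were present. RNA-seq was done on A549, an established human lung adenocarcinoma line, to find which transcripts differ when CEP20, a centrosomal protein, is depleted. The 3 siCEP20 samples received siRNA against CEP20 and the 3 siCTR samples a control siRNA, for 3 days according to the labels, and no other allele or agent set the groups apart. The methods describe a pair of CEP20 siRNAs, and the labels do not say which was used for sequencing. One label field names a plasmid transfection in all 6 samples. Nothing in the labels says that replicates came from separate cultures, so p-values measure only the spread between these samples. Expression was given as TPM, a relative transcript abundance scaled by transcript length and by the library total.

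In a cell that starts to divide, D-type cyclins bind the kinases CDK4 and CDK6, and E-type cyclins bind CDK2. These kinases phosphorylate the retinoblastoma protein RB1, which then releases E2F transcription factors, and E2F targets carry the cell from G1 into S phase. INK4 inhibitors such as the product of CDKN2C bind CDK4 and CDK6, while CIP/KIP inhibitors such as the product of CDKN1B act mainly on CDK2 complexes. A549 is known to lack the CDKN2A and CDKN2B genes, which encode other INK4 inhibitors.

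The depth of each library is unknown, because TPM holds no read counts, and every library summed to 1000000 TPM. CEP20 had 29.2, 30.5 and 35.1 TPM in the siCTR libraries and 16.2, 15.3 and 17.3 TPM in the siCEP20 libraries, so the target was lower in every knockdown library (log2 fold change -0.92, SE 0.0915, adjusted p = 0.000205 from limma). The epithelial marker KRT8 was at 1535 TPM or more in all libraries, and KRT18 had a mean of 1593 TPM in siCTR libraries. Other epithelial markers were lower, with siCTR means of 70.5 TPM for KRT19, 11.8 TPM for CDH1 and 1.04 TPM for EPCAM. CDKN2A was at most 0.61 TPM and CDKN2B at most 0.18 TPM in any library. In the epithelial list 5 of 5 genes were higher at an adjusted p-value under 0.05 from limma, against 30.2% of all tested genes. With median-of-ratios scaling 3 of 5 were higher, against 2963 of all 14778 tested genes. The summed level of the list was 3230 to 3300 TPM in siCTR and 4187 to 4368 TPM in siCEP20 libraries. Of 8 markers of other cell types, CD68 and COL1A1 rose, and the summed level ran from 20.5 to 29.0 TPM in siCTR and from 46.8 to 63.0 TPM in siCEP20 libraries. CD3E and DCN were listed at 0 in all libraries and PTPRC, PECAM1, VWF and COL3A1 stayed at or below 0.195 TPM, so these defining markers of immune, endothelial and fibroblast cells were at or near 0 while CD68 and COL1A1 were not. The part of these marker changes in the results below was not tested. RNA was taken from whole cultures, in which fewer cells in a phase of the cycle and less RNA per cell cannot be told apart.

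CEP20 knockdown was accompanied by an exchange within the D-type cyclins and by less CDK4 transcript. CCND3 rose 1.58-fold while CCND1 fell to 82.0% of the control mean, and CDK4 fell to 74.9%. CCNE1 rose to 134.9% and RB1 to 128.7% of the control mean. CDK2, CDK6, CDKN1B and CDKN2C did not pass the test, and CCNE2 was too low to be tested. Of the 9 members with a mean of at least 1 TPM, the adjusted p-value was under 0.05 in 5, against 43.3% of all tested genes. Of these 5 members, 3 were higher (background 30.2%) and 2 lower (background 13.2%). The test was limma on log2(TPM + 1) over 14778 genes, with Benjamini-Hochberg adjustment. When a fold change above 1.5 or below 0.67 was also required, CCND3 was the 1 member called higher (background 11.2%). With that requirement 0 members were called lower by limma (background 4.61%). The number lower at an unadjusted p-value under 0.05 was 0 with that fold change and 2 without it. In 6 of the 9 tested members the 3 values of one group lay apart from those of the other, a share close to that of all tested genes (55.4%). They were 3 members that lay higher (background 38.4%) and 3 that lay lower (background 17%). The median log2 fold change of the tested members was 0.06, against 0.13 for all tested genes.

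**Figure D1:**
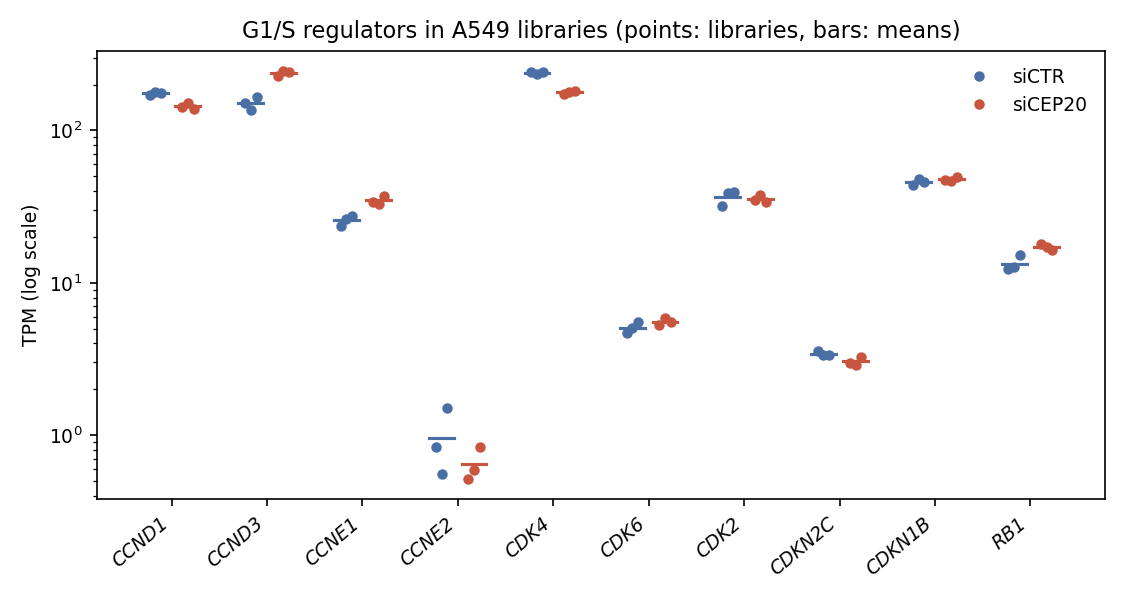
TPM of the 10 G1/S regulators on a log axis, with 1 point for each library and a bar at the mean of each group of 3. The siCEP20 points of CCND3, CCNE1 and RB1 lie above all siCTR points, those of CCND1, CDK4 and CDKN2C lie below them, and the other genes overlap.

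The shift of all genes depends on the scale between libraries and bears on members with small changes. With TPM as deposited, calls were made for 1659 higher and 682 lower genes (70.9% higher). Scaling by the median of ratios gave 894 higher and 1103 lower (44.8% higher), and quantile normalization gave 923 and 1016 (47.6% higher). Median-of-ratios scaling moved the median log2 fold change of all genes to 9.4e-05. Under it CCND3 had a log2 fold change of 0.51, which kept its adjusted p-value (0.0013) but fell short of the 1.5-fold requirement, so 0 members were called. Under the same scaling CCND1 was at -0.43 and CDK4 at -0.57. For members that passed the test, the change minus the all-gene median on the deposited scale (0.13) is stated too.

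D-type cyclins were among the most abundant members. CCND1 (ENSG00000110092), the main D-type cyclin of many epithelial tumors, spans positions 69641156 to 69654474 of chromosome 11 (hg38, plus strand). It had 171.9, 179.5 and 176.3 TPM in siCTR libraries and 142.6, 151.9 and 138.5 TPM in siCEP20 libraries. Every knockdown library was below every control library. The means were 175.9 ± 3.85 and 144.3 ± 6.88 TPM (SD, n = 3 each), and the log2 fold change was -0.28 (SE 0.0557, adjusted p = 0.00441 from limma), with -0.42 after subtracting the median. Exons of LTO1 lie on the opposite strand at this locus, and LTO1 had 29.8 ± 4.07 TPM in siCTR and 29.8 ± 2.29 TPM in siCEP20 libraries.

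CCND3 (ENSG00000112576), a D-type cyclin that is prominent in lymphoid cells and partners the same kinases, spans positions 41934934 to 42050357 of chromosome 6 (minus strand). Its TPM was 152.1, 136.3 and 164.9 in siCTR libraries and 228.6, 245.1 and 242.9 in siCEP20 libraries. The groups lay far apart compared with the spread within either. The means were 151.1 ± 14.3 and 238.9 ± 8.98 TPM, a log2 fold change of 0.66 (SE 0.075, 95% interval 0.49 to 0.83, adjusted p = 0.000365 from limma) and 0.53 after subtracting the median. CCND3 has several annotated start sites, and the deposited value adds the transcripts of all of them. CCND2, the other D-type cyclin gene, was listed at 0 in all 6 libraries.

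A ratio of 2 genes within a library does not depend on the scale between libraries. The CCND1 to CCND3 ratio was 1.13, 1.32 and 1.07 in siCTR libraries and 0.624, 0.620 and 0.570 in siCEP20 libraries. CCND1 thus exceeded CCND3 in every control library and was below it in every knockdown library. CCND1 made up 53.9% ± 2.67 of the D-type cyclin transcripts in siCTR and 37.7% ± 1.17 in siCEP20 libraries (SD, n = 3 each). The sum of both genes was 324, 316 and 341 TPM in siCTR libraries and 371, 397 and 381 TPM in siCEP20 libraries. On the deposited scale the pool was thus larger in each knockdown library. Unlike a ratio, this sum depends on the scale between libraries, and it was not computed under another scaling. The log2 ratio differed by -0.95 (two-sided exact permutation test, p = 0.1, adjusted p = 0.14 over 7 ratios). A p of 0.1 is the smallest that 3 samples against 3 allow, so no ratio could pass a threshold of 0.05.

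**Figure D2:**
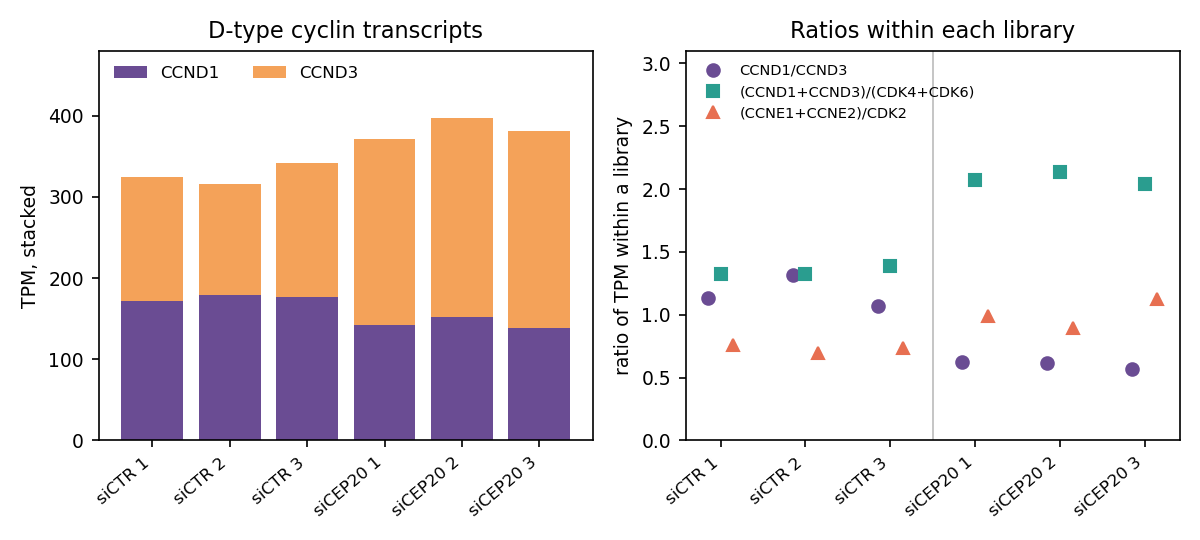
On the left, TPM of CCND1 and CCND3 stacked for each library. On the right, 3 ratios of TPM within each library, with a grey line between the siCTR and siCEP20 libraries. The CCND1 to CCND3 ratio is above 1 in the siCTR libraries and between 0.570 and 0.624 in the siCEP20 libraries, while the ratio of D-type cyclins to CDK4 and CDK6 is at most 1.39 in siCTR and at least 2.04 in siCEP20 libraries.

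CDK4 (ENSG00000135446), a kinase partner of D-type cyclins, spans positions 57747727 to 57756013 of chromosome 12 (minus strand) and was the most abundant member in control cells. Its TPM was 240.7, 233.4 and 240.3 in siCTR libraries and 173.7, 180.1 and 181.4 in siCEP20 libraries. The groups were separate and each was tight. The means were 238.1 ± 4.13 and 178.4 ± 4.11 TPM, a log2 fold change of -0.41 (SE 0.0484, adjusted p = 0.000414 from limma) and -0.55 after subtracting the median. TSPAN31 shares exon positions with CDK4 on the opposite strand, and it fell too, from 33.1 ± 3.59 to 26.3 ± 0.78 TPM (log2 fold change -0.32, adjusted p = 0.0222 from limma). The libraries were stranded according to the methods, and whether strand was used in quantification is not given in the sources used here. The part of TSPAN31 reads in the CDK4 value was not tested. MARCHF9, which meets CDK4 only in introns on the opposite strand, went from 11.5 ± 1.10 to 7.45 ± 1.46 TPM (log2 fold change -0.58, adjusted p = 0.0126 from limma).

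CDK6 (chromosome 7 from 92604921 to 92836573), the other kinase of D-type cyclins, was low in this line. It had 4.66, 5.03 and 5.56 TPM in siCTR libraries and 5.25, 5.89 and 5.51 TPM in siCEP20 libraries, and the groups overlapped. Its log2 fold change was 0.11 (95% interval -0.14 to 0.36, adjusted p = 0.456 from limma), and its sign turned under every scaling alternative. CDK4 made up 97.9% ± 0.18 of the CDK4 and CDK6 transcripts in siCTR and 97.0% ± 0.13 in siCEP20 libraries. The CDK4 to CDK6 ratio was 51.7, 46.4 and 43.2 in siCTR libraries against 33.1, 30.6 and 32.9 in siCEP20 libraries (log2 difference -0.55, exact permutation p = 0.1).

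With less CDK4 transcript and, on the deposited scale, more D-type cyclin transcript, the balance between cyclins and their kinases changed in every knockdown library. The summed D-type cyclins stood at 1.32, 1.33 and 1.39 times the summed CDK4 and CDK6 in siCTR libraries and at 2.07, 2.13 and 2.04 times in siCEP20 libraries. The mean ratio was 1.55-fold higher (log2 difference 0.63, exact permutation p = 0.1). These are transcript levels, and protein was not measured in these samples.

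E-type cyclins and CDK2 act after the D-type cyclins. CCNE1 (ENSG00000105173, chromosome 19 from 29811991 to 29824312, plus strand) had 23.5, 26.1 and 27.6 TPM in siCTR libraries and 33.8, 33.1 and 37.4 TPM in siCEP20 libraries. All knockdown values exceeded all control values. The log2 fold change was 0.42 (SE 0.0853, adjusted p = 0.00531 from limma) and 0.29 after subtracting the median. CCNE2, its paralog on chromosome 8, was at 0.84, 0.55 and 1.5 TPM in siCTR libraries and 0.52, 0.59 and 0.84 TPM in siCEP20 libraries, below the filter of a mean of 1 TPM (two-sided exact permutation test, p = 0.4). Exons of INTS8 overlap CCNE2 on the opposite strand, and INTS8 had mean levels of 20.4 and 26.3 TPM. CCNE1 therefore gave at least 94.8% of E-type cyclin transcripts in every library. The CCNE1 to CCNE2 ratio overlapped between groups (18.4 to 47.2 in siCTR, 44.7 to 65.6 in siCEP20).

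CDK2 (ENSG00000123374, chromosome 12 from 55966781 to 55972789), the partner of E-type cyclins, had 32.0, 38.6 and 39.4 TPM in siCTR libraries and 34.8, 37.6 and 33.9 TPM in siCEP20 libraries. The knockdown values lay inside the control range, and the log2 fold change was -0.05 (95% interval -0.26 to 0.17, adjusted p = 0.72 from limma). On the deposited scale the interval does not reach a 1.5-fold change in either direction. The log2 fold change was -0.19 with median-of-ratios scaling, -0.18 with quantile normalization and -0.13 after the length and GC correction. The adjusted p-values from limma were 0.0592, 0.0754 and 0.208. E-type cyclins relative to CDK2 were 0.760, 0.692 and 0.739 in siCTR libraries and 0.987, 0.896 and 1.13 in siCEP20 libraries. The mean ratio was 1.37-fold higher, with separate groups (log2 difference 0.45, exact permutation p = 0.1).

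The inhibitors among the members did not pass the test. CDKN1B (chromosome 12 from 12685498 to 12722369), which encodes the CIP/KIP inhibitor p27, had 43.6, 48.2 and 45.9 TPM in siCTR libraries and 47.1, 46.4 and 49.8 TPM in siCEP20 libraries. The groups overlapped, with a log2 fold change of 0.06 (95% interval -0.10 to 0.21, adjusted p = 0.529 from limma) whose sign turned under every scaling alternative. CDKN2C (chromosome 1 from 50960745 to 50974634), which encodes the INK4 inhibitor p18, had 3.55, 3.35 and 3.35 TPM in siCTR libraries and 2.97, 2.89 and 3.27 TPM in siCEP20 libraries. Its groups were separate, yet the difference was small for so low a level (log2 fold change -0.13, 95% interval -0.41 to 0.15, adjusted p = 0.419 from limma). The CDKN1B to CDKN2C ratio was 12.3, 14.4 and 13.7 against 15.9, 16.1 and 15.2 (log2 difference 0.23, exact permutation p = 0.1). CDK2 relative to CDKN1B was 0.735, 0.799 and 0.858 against 0.738, 0.810 and 0.680, with overlapping groups (log2 difference -0.10, exact permutation p = 0.5).

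RB1 (ENSG00000139687, chromosome 13 from 48303744 to 48599436, plus strand), the substrate of these kinases, had 12.2, 12.7 and 15.2 TPM in siCTR libraries and 18.0, 17.2 and 16.4 TPM in siCEP20 libraries. The groups did not overlap, although siCTR replicate 3 came close to the lowest knockdown value. The log2 fold change was 0.35 (SE 0.0986, adjusted p = 0.0224 from limma) and 0.21 after subtracting the median. This was the least stable change among those that passed. Its adjusted p-value was over 0.05 in 8 of 15 alternatives, among them every scaling alternative (0.0936 to 0.193) and the fits without siCTR replicate 1 (0.065), siCTR replicate 2 (0.0701), siCEP20 replicate 1 (0.0764) or siCEP20 replicate 2 (0.0615).

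**Figure D3:**
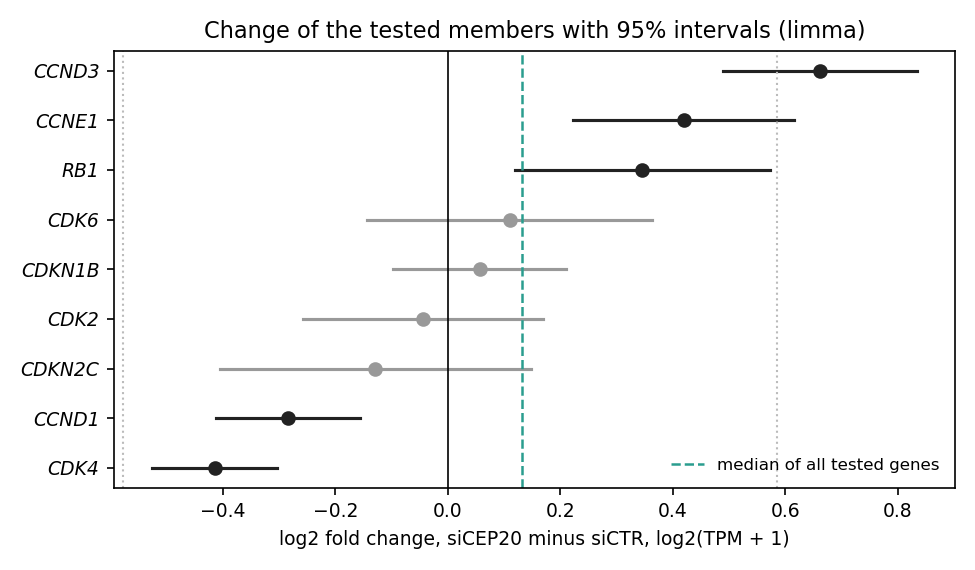
Log2 fold change of the 9 tested members (siCEP20 minus siCTR, on log2(TPM + 1)) with 95% intervals from limma. Black marks an adjusted p-value under 0.05, the dashed line is the median of all tested genes (0.13), and dotted lines are fold changes of 1.5 and 0.67. CCND1 and CDK4 lie below 0, and CCND3 is the 1 member past a dotted line.

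The order of the members changed at the top. In siCTR samples CDK4 was highest, followed by CCND1, CCND3, CDKN1B, CDK2, CCNE1, RB1, CDK6, CDKN2C and CCNE2, and no neighbours in this order overlapped in range. In siCEP20 libraries CCND3 was highest, followed by CDK4 and CCND1, and the rest kept their places, except that the ranges of CDK2 and CCNE1 overlapped. On the deposited scale, all 10 members together took 684 to 720 TPM in siCTR and 687 to 721 TPM in siCEP20 libraries, which overlapped. This sum was not computed under another scaling.

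Of the tested genes that are no members, those whose z-scored pattern over the 6 libraries was closest to that of CCND3 were ZC3H12A (root mean squared distance 0.0463, Pearson r = 0.999), SLC35F3 (0.0492) and ATP13A2 (0.052). ZC3H12A had 92.0 to 109.5 TPM in siCTR and 155.2 to 167.4 TPM in siCEP20 libraries. The 6 points fall into the 2 groups for each of these genes, and the likeness includes that shared difference.

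Promoter sequence is shown for the members that passed the test and had matches, since Sp1 sites are a known feature of promoters of growth-regulated genes. RefSeq promoters (GRCh38.p14, 250 bases before to 50 after a start site) were found for 7 of the 10 members, with 12 entries. The letters GGGCGG, read on both strands, occurred in 8 of the 12 entries and in 45% of all 35116 promoters searched. The E2F letters TTTGGCGC, TTTCCCGC, TTTGCCGC and TTTCGCGC, read on both strands, occurred in 0 of the 12 entries and in 3.31% of all promoters, which says only that these letters are not in these windows. Each line below gives a window of 30 bases upstream of a start site, 5′ to 3′ on the strand of the gene, with capitals marking GGGCGG or its complement CCGCCC. The windows lie 216 to 187 (CCND3), 228 to 199 (CCNE1) and 199 to 170 (CDK4) bases before the start site of their entry.
CCND3, chr6:42048875-42048904, minus strand: CCGCCCccgcacctatgccgcgtgGGGCGG
CCNE1, chr19:29811763-29811792, plus strand: ttggccCCGCCCtgtccgccggccCCGCCC
CDK4, chr12:57752480-57752509, minus strand: gatcacgtggctgccatcgcccctCCGCCC
These windows were shown because they hold the letters. Of the 3 CCND3 entries 1 had 0 matches, as did the 1 entry found for RB1. That RB1 entry (chr13:48476200-48476499) lies inside the gene, which starts at position 48303744, so sequence at the gene start was not searched. The entries shown for CCND3 (chr6:42048639-42048938) and CDK4 (chr12:57752261-57752560) also lie inside their genes. These minus-strand genes begin at positions 42050357 and 57756013, so the 2 windows are not at the outermost annotated start. No relation of the letters to the direction of change was tested.

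Other regulators of the same step were followed through lists chosen by function. Among 12 further cyclins, kinases, inhibitors and pocket proteins, 7 were tested. The adjusted p-value was under 0.05 in 1 higher (14.3%, background 30.2%) and 2 lower genes (28.6%, background 13.2%). CDKN2D, an INK4 inhibitor gene, was at 1.71, 3.43 and 3.70 TPM in siCTR and 1.26, 1.43 and 1.67 TPM in siCEP20 libraries. Its call (log2 fold change -0.65, adjusted p = 0.0482 from limma) was lost in 9 of 14 alternatives, among them the fits without siCTR replicate 2 or 3 and without each siCEP20 replicate. CDKN1A, which encodes the CIP/KIP inhibitor p21, was singled out after its values were seen because it was the most abundant inhibitor. It had 345.7, 348.0 and 351.7 TPM in siCTR libraries and 240.8, 251.2 and 250.6 TPM in siCEP20 libraries. This fall was far larger than the spread in either group (log2 fold change -0.49, SE 0.0462, adjusted p = 0.000158 from limma), and it passed at an adjusted p-value under 0.05 in 15 of 15 alternatives. CDKN1A and CDKN1B together went from 394.4 ± 4.48 to 295.3 ± 6.58 TPM. RBL1, a pocket protein related to RB1, rose from 5.60 ± 0.63 to 7.37 ± 0.54 TPM (log2 fold change 0.35, adjusted p = 0.0395 from limma), a change that passed in 5 of 15 alternatives. It did not pass with the replicate block, with no filter on low TPM, under any scaling alternative, without siCTR replicate 1 or 2, or without any single siCEP20 replicate.

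Of the 10 genes for E2F factors and their DP partners, 5 were higher (50%, background 30.2%) and 0 lower (background 13.2%) by limma. The number lower was 0 also at an unadjusted p-value under 0.05. The median log2 fold change was 0.25 against 0.13 for all genes. Under scaling by the median of ratios 3 were higher and 0 lower, against 2963 and 3185 of all 14778 tested genes. After the length and GC correction 3 were higher and 1 lower, against 2960 and 3143 of all 14737 tested genes. E2F8, a repressive member of the family that is itself induced at the entry to S phase, was the 1 gene called. It rose from 1.84 ± 0.10 to 4.17 ± 0.31 TPM (log2 fold change 0.86, adjusted p = 0.0012 from limma). E2F8 was called in 14 of 14 alternatives that kept the fold change requirement, with log2 fold changes from 0.71 to 1.14. It lost its call with a fold change of 2 required, on a log2(TPM + 1) scale that understates the changes of low genes. TFDP1, the main dimerization partner of E2F factors, rose from 48.9 ± 3.17 to 70.2 ± 1.84 TPM (log2 fold change 0.51).

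Among 32 targets of E2F at G1/S, the adjusted p-value was under 0.05 in 11 higher (34.4%) and 4 lower genes (12.5%). These shares are close to those of all tested genes (30.2% and 13.2%), and the median log2 fold change was 0.17 against 0.13. With median-of-ratios scaling 9 were higher and 8 lower, against 2963 and 3185 of all 14778 tested genes. MYBL2, a transcription factor of cycling cells, rose from 43.8 ± 1.92 to 87.6 ± 3.72 TPM (log2 fold change 0.99, adjusted p = 4.71e-05 from limma). CDT1, which loads the replicative helicase, rose from 20.2 ± 0.86 to 33.3 ± 0.58 TPM (log2 fold change 0.69), and this call was lost with median-of-ratios scaling and with quantile normalization. GINS1, a subunit of that helicase, fell from 17.7 ± 1.33 to 7.99 ± 0.84 TPM (log2 fold change -1.06, adjusted p = 0.000185 from limma). MYBL2 and GINS1 were called in 15 of 15 alternatives that kept the fold change requirement. With a fold change of 2 required, MYBL2 lost its call.

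Regulators that modify or degrade cyclins and inhibitors were mixed as well. Of 9 genes that activate or phosphorylate the kinases, 3 were higher (33.3%, background 30.2%) and 0 lower (background 13.2%) by limma. The number lower was 0 also at an unadjusted p-value under 0.05. With quantile normalization 1 was lower, against 2938 of all 14778 tested genes. CDC25B, a phosphatase that activates cyclin-dependent kinases, went from 337.5 ± 35.8 to 511.2 ± 13.8 TPM (log2 fold change 0.60), a call lost in 5 of 15 alternatives, among them the fits without siCTR replicate 1, siCTR replicate 2 or siCEP20 replicate 2. Of 16 genes for the turnover of cyclins and inhibitors, 6 were higher (37.5%, background 30.2%) and 1 lower (6.25%, background 13.2%). The numbers were 5 and 3 with median-of-ratios scaling, against 2963 and 3185 of all 14778 tested genes. They were 4 and 4 after the length and GC correction, against 2960 and 3143 of all 14737 tested genes. The median log2 fold change of this list was 0.13, the same as for all tested genes, and -0.14 after that correction. RBX1, the RING subunit of cullin ligases, fell from 53.1 ± 2.30 to 32.7 ± 1.31 TPM (log2 fold change -0.68, adjusted p = 0.000189 from limma), and GSK3B, a kinase that marks cyclin D1 for export and breakdown, rose from 16.8 ± 2.87 to 27.1 ± 1.12 TPM (log2 fold change 0.67), a call lost in all 3 scaling alternatives. Of the MuvB complex and its kinase DYRK1A, 2 of 6 genes were higher (RBBP4 and LIN9, 33.3%) and 1 lower (LIN37, 16.7%). The shares of all tested genes were 30.2% higher and 13.2% lower. LIN37 was at the threshold (log2 fold change -0.17, adjusted p = 0.0498 from limma) and did not pass in 8 of 15 alternatives, among them the replicate block and the fits without siCTR replicate 2, siCTR replicate 3 or any single siCEP20 replicate. RBBP4 did not pass after the length and GC correction.

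Of 16 G2/M genes, 9 were higher (56.2%, background 30.2%) and 1 lower (6.25%, background 13.2%). With median-of-ratios scaling the numbers were 7 and 2, against 2963 and 3185 of all 14778 tested genes. The median log2 fold change was 0.27, against 0.13 for all tested genes. MKI67, the proliferation marker, rose from 23.6 ± 2.68 to 45.8 ± 3.46 TPM (log2 fold change 0.93, adjusted p = 0.000261 from limma), and CENPF from 9.54 ± 1.04 to 17.1 ± 1.48 TPM (0.78). CENPF lost its call after the correction for length and GC content. Of the 96 tested genes of all 7 lists, 7 (7.29%) were called higher and 3 (3.12%) lower. These shares were below those of all tested genes (11.2% and 4.61%). Without siCTR replicate 3 the numbers were 12 and 2, against 1890 and 670 of all 14778 tested genes. With median-of-ratios scaling they were 4 and 4, against 894 and 1103.

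**Figure D4:**
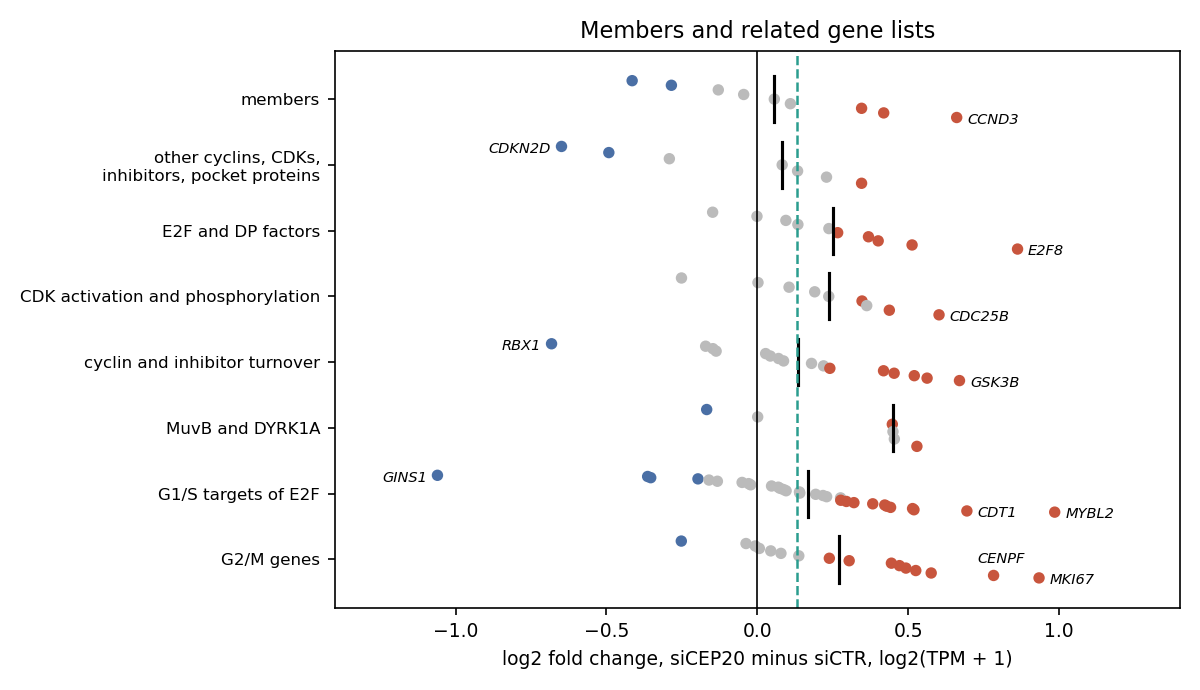
Log2 fold change of each tested gene in the members and in 7 related lists, with a black bar at the median of the list and a dashed line at the median of all tested genes (0.13). Red (higher) and blue (lower) mark genes whose adjusted p-value was under 0.05, grey the others, and names mark genes that also passed the fold change requirement. Every list with at least 3 genes past the test except the E2F and kinase lists holds genes of both colours.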

How the data were processed

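According to the methods and the submitters' processing notes, reads were trimmed with fastp 0.20.1, aligned to hg38 with HISAT2 2.1.0 and assembled with StringTie 2.0, and the authors deposited TPM summed over the transcripts of each gene. The annotation release is not given in the sources used here. All 6 columns were mapped to samples by name. Genes were named with GENCODE release 44, which matched 60370 of 60624 rows. Genes averaging 1 TPM or more over all libraries (14778) were compared on the log2(TPM + 1) scale with limma 3.58.1 in R 4.3.3 (eBayes with a trend, Benjamini-Hochberg adjustment over all tested genes). The count test of the methods needs read counts and was not run. Fold changes on this scale understate those of low genes. Ratios were compared by two-sided exact permutation tests. Permutation tests used numpy 2.4.6, and figures matplotlib 3.10.9.

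The members and lists were chosen with earlier results of these data known. All members were named, together with list genes past both thresholds (at most 4 in each list), list genes at 0 in all libraries, and the 3 genes closest in pattern to each called member. Named beyond this rule, after their values were seen, were CDKN1A, RBL1, TFDP1, the MuvB genes past the test and the genes that overlap members. The fits were tested on simulated data beforehand. The alternatives were a pseudocount of 0.1, other filters on low TPM, median-of-ratios scaling, quantile normalization, a loess correction for length and GC content (span 0.5), eBayes without a trend, a replicate block, protein-coding genes only, each library left out, and a fold change of 2 or 0.5. The last changes only the fold change requirement and is left out of the counts of alternatives given for single genes.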

Additional observations from a re-analysis of the deposited data

How the results depend on the processing

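CCND1, CCND3, CCNE1 and CDK4 kept their direction and an adjusted p-value under 0.05 from limma in 15 of 15 alternatives. RB1 did so in 7 of 15. The number of members called higher went from 1 to 0 with median-of-ratios scaling and with a fold change of 2 required, while 0 were called lower throughout. Signs turned only among members that did not pass. CDK2 was at 0.0088 without siCTR replicate 3 (-0.14 to 0.0088 with 1 library left out). CDK6 was at -0.0172, -0.0691 and -0.18, and CDKN1B at -0.0916, -0.0361 and -0.12, with median-of-ratios scaling, quantile normalization and the length and GC correction. The causes were not tested. Related list genes called higher were 4 with median-of-ratios scaling, 4 with the length and GC correction, 0 with a fold change of 2 required and 6 to 12 with 1 library left out. With a fold change of 2 required, 1 was called lower. Over all genes, 894, 923 and 902 were called higher under the 3 scaling alternatives and 261 with a fold change of 2, against 1103 lower with median-of-ratios scaling and 147 with a fold change of 2. The directions of all 7 ratios were kept with a pseudocount of 1 and with each library left out. This includes CCNE1 to CCNE2 and CDK2 to CDKN1B, whose groups overlapped. A replicate block leaves the mean difference of a ratio unchanged by construction. Quantile normalization and the length and GC correction were not run on ratios.

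Same-numbered samples did not deviate together (correlations of 0.157, -0.0614 and -0.0623 over 14778 genes), and of the siCTR samples only replicate 1 correlated best with its own number, so the numbers were not taken as pairs. With the replicate number as a block, 1654 genes were called higher and 694 lower, the members passing the test stayed at 3 higher and 2 lower, and RB1 had an adjusted p = 0.0432. Depth is unknown, so how far counting error limits CCNE2, CDKN2C and CDKN2D cannot be given.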
